A study of Mus musculus with 3 samples.

Results

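The interferon-induced transmembrane (IFITM) genes encode small membrane proteins, and all 7 mouse genes of the family listed among the 24421 genes of the deposited expression values were followed by their symbols: Ifitm1, Ifitm2, Ifitm3, Ifitm5, Ifitm6, Ifitm7 and Ifitm10. RNA sequencing measured them in granulocyte progenitors, bone marrow cells on the way to neutrophils, which were purified from female mice by flow cytometry. The study holds 3 libraries, 1 per group. The IRF8-deficient group came from mice on the C57BL/6 (H-2b) background that lack the expression and function of IRF8, a transcription factor that steers myeloid progenitors toward monocytes and dendritic cells. The 4T1-TB group came from mice that carried 4T1 cells, a mouse mammary carcinoma line, implanted at the orthotopic site. The NTB group came from mice without a tumor, and both it and the 4T1-TB group were semi-syngeneic F1 mice (H-2b/d). Strain background and IRF8 genotype therefore change at once wherever the IRF8-deficient library is compared, and the 2 cannot be told apart. Against the 4T1-TB library the tumor changes as well, so there the 3 cannot be told apart. The sources used here do not give the Irf8 allele, the age and number of the mice, or the surface markers of the sort.

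IFITM proteins sit in the plasma membrane and in endosomes and lysosomes, where they stiffen membranes and block the fusion step by which many enveloped viruses enter a cell. Interferon induces several of them through the STAT and IRF transcription factors, and stem and progenitor cells of many kinds also express some of them without added interferon. Ifitm1, Ifitm2 and Ifitm3 are the broadly expressed members with known antiviral activity, and mice that lack Ifitm3 are more prone to severe influenza. Ifitm5 is the bone member, made by osteoblasts. The functions of Ifitm6, Ifitm7 and Ifitm10 are less well known.

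In mm10, 5 of the 7 genes lie within 68.967 kb at chr7:140948958-141017924. In the GENCODE M21 annotation their order along the chromosome is Ifitm5 (140948958-140950291, minus strand), Ifitm2 (140954837-140955987, minus strand), Ifitm1 (140967221-140969825, plus strand), Ifitm3 (141009586-141010770, minus strand) and Ifitm6 (141015699-141017924, minus strand). Ifitm10 lies farther along the same chromosome, at chr7:142325837-142373753 on the minus strand, and Ifitm7 lies at chr16:13981699-13986888 on the minus strand. The promoter windows of the 4 members that carried nearly all of the family's RNA are shown because these neighbours differed most in their pattern over the libraries. They are RefSeq windows of 300 bases on GRCm38.p6, from 250 bases before to 50 after the start, written 5′ to 3′ on the gene's own strand, at chr7:140967826-140968125 (plus strand) for Ifitm1, chr7:140955912-140956211 (minus strand) for Ifitm2, chr7:141010695-141010994 (minus strand) for Ifitm3 and chr7:141016843-141017142 (minus strand) for Ifitm6. Capitals mark matches to the motif letters described after them.
Ifitm1: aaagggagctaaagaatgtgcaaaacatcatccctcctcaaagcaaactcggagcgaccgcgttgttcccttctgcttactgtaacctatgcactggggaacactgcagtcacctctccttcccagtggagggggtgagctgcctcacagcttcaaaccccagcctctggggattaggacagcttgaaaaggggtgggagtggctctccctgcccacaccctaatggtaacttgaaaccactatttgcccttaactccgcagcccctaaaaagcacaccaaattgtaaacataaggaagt
Ifitm2: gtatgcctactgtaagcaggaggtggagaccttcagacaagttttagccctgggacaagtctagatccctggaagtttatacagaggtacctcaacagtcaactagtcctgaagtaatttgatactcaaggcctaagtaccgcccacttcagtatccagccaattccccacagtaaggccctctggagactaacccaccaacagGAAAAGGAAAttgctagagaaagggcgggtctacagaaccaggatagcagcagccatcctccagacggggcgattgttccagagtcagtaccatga
Ifitm3: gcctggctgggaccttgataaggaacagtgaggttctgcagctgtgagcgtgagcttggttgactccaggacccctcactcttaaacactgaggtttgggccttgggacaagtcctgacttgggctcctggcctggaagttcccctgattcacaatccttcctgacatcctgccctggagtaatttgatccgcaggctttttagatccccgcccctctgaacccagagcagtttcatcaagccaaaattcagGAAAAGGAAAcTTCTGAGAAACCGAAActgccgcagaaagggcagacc
Ifitm6: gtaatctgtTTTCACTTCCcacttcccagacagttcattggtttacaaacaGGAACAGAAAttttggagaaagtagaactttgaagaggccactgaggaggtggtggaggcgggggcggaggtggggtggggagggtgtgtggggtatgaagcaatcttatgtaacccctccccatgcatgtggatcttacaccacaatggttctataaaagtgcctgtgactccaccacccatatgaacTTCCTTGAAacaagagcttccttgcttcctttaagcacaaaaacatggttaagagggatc

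Both strands were searched for 3 motifs that interferon and IRF signaling are known to use. The core of the interferon-stimulated response element (ISRE) was written GAAA, any 2 bases, GAAA, the composite bound by ETS factors with IRF4 or IRF8 was written GGAA, any 2 bases, GAAA, and the gamma-activated site (GAS) bound by STAT dimers was written TTC, any 3 bases, GAA. The Ifitm3 window held 2 ISRE-core matches, which start at +3 and +20 relative to the start, and 1 GAS match at +14 that overlaps the second of them. The Ifitm2 window held 1 ISRE-core match at -46. The Ifitm6 window held no ISRE-core match, 2 matches to the ETS-IRF composite at -241 (on the reverse strand) and -199, and 1 GAS match at -10. The Ifitm1 window held none of the motifs, nor did the windows of Ifitm5, Ifitm7 and Ifitm10. Of 32851 windows of the same length, 3.44% held the ISRE core, 2.72% the composite and 8.30% the GAS letters. A match describes the letters of a window and is not evidence that a factor binds there. The Ifitm1 and Ifitm6 windows begin downstream of the start of the GENCODE gene model, so neither covers every annotated start of its gene.

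The values were in RPKM, reads per kilobase of transcript scaled to the size of the library, a level per length that allows comparison between genes. The reads behind each value were recovered from the RPKM steps and summed to 35908806, 23343940 and 42217119 in the IRF8-deficient, 4T1-TB and NTB libraries. For Ifitm1, Ifitm3 and Ifitm10 the number of reads, and so the width of the intervals, also rests on the annotated transcript length. Intervals are 95% intervals for counting error only, and with 1 library per group no spread between mice could be estimated, so no difference was tested and none has a replicate check. Irf8 itself had 13.7 RPKM in the IRF8-deficient library, 8.60 RPKM in the 4T1-TB library and 43.8 RPKM in the NTB library. Irf8 was thus above 0 in the library labelled IRF8-deficient and lowest in the 4T1-TB library. A level per gene does not show which exons were read. Fewer cells of a type and less RNA per cell cannot be told apart in bulk RNA, here and in every level that follows. The 13 listed genes of the primary granules, which mark promyelocytes, had median levels of 588, 1331 and 916 RPKM in the IRF8-deficient, 4T1-TB and NTB libraries. The lowest level among them was 13.3, 21.7 and 22.9 RPKM in the same order. Mpo (myeloperoxidase) had 4012, 6749 and 6811 RPKM and Elane (neutrophil elastase) had 2889, 4332 and 4411 RPKM. The ribosomal RNA gene Rn45s took 13.8%, 6.34% and 1.797% of the reads in the same order of libraries.

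The members fell into 3 broad levels. Ifitm2, Ifitm3 and Ifitm6 reached more than 100 RPKM in at least 1 library, Ifitm1 reached 73.7 RPKM in the 4T1-TB library and stayed under 5 RPKM in the other two, and Ifitm5, Ifitm7 and Ifitm10 never passed 5 RPKM.

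**Figure D1:**
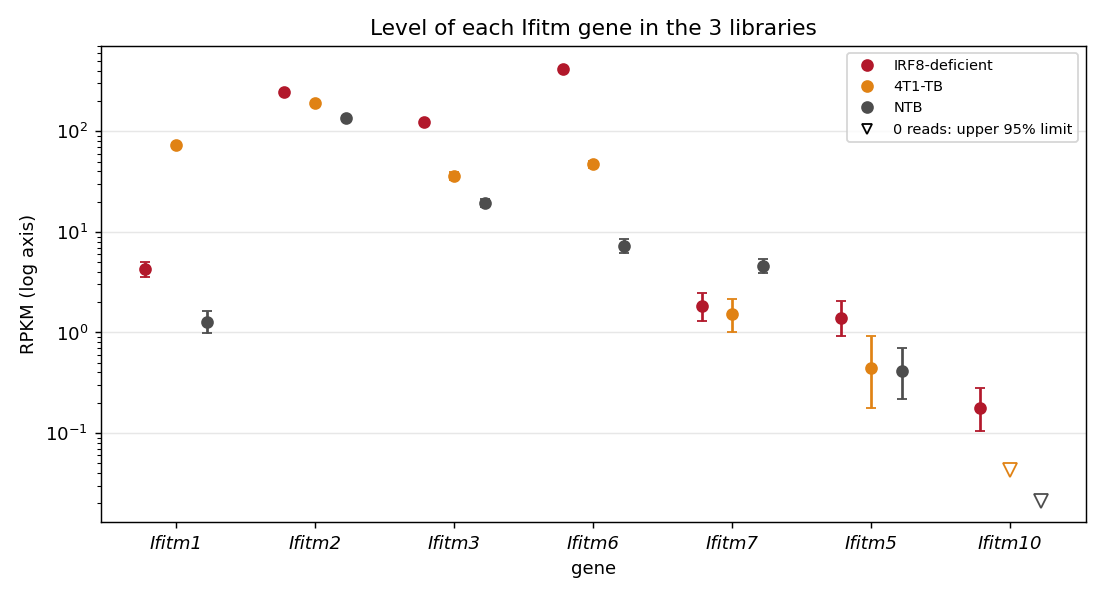
RPKM on a log10 axis for the 7 family members in the IRF8-deficient, 4T1-TB and NTB libraries, 1 point per library with bars for the 95% counting interval. Ifitm2 stays between 137 and 248 RPKM, while Ifitm6 covers 421 to 7.26 RPKM and Ifitm1 is high only in the 4T1-TB library.

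Ifitm2 was the most abundant member in the 4T1-TB and NTB libraries and the least variable of those with many reads. It had 248 RPKM (240.2 to 255; 4056 reads) in the IRF8-deficient library, 191 RPKM (184 to 198; 2656 reads) in the 4T1-TB library and 137 RPKM (132 to 141; 3835 reads) in the NTB library. It ranked 256th, 294th and 365th among the genes of these libraries by level. Its 3 intervals do not overlap, but the ratios were small: 1.81-fold higher in the IRF8-deficient than in the NTB library (1.74 to 1.90) and 1.40-fold higher in the 4T1-TB than in the NTB library (1.33 to 1.47).

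Ifitm3, the endosomal member best known for restricting influenza virus, followed the same order of libraries with wider steps. It had 123 RPKM (117 to 128; 2076 reads) in the IRF8-deficient library, 36.1 RPKM (33.1 to 39.4; 520 reads) in the 4T1-TB library and 19.4 RPKM (17.9 to 21.1; 564 reads) in the NTB library. The IRF8-deficient library stood well above the other two, whose intervals also do not overlap.

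Ifitm6 covered the widest range of the family. It had 421 RPKM (410.1 to 432; 5943 reads) in the IRF8-deficient library, 46.9 RPKM (43.1 to 51.0; 564 reads) in the 4T1-TB library and 7.26 RPKM (6.23 to 8.42; 176 reads) in the NTB library. Among all genes it ranked 173rd in the IRF8-deficient library, 1516th in the 4T1-TB library and 6999th in the NTB library. It was thus the most abundant member in the IRF8-deficient library and the third of 7 by level in the NTB library.

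Ifitm1, a member that in human cells is found mostly at the cell surface, had a different order. It had 4.24 RPKM (3.53 to 5.06; 124 reads) in the IRF8-deficient library, 73.7 RPKM (70.3 to 77.1; 1832 reads) in the 4T1-TB library and 1.28 RPKM (0.983 to 1.63; 64 reads) in the NTB library. The 4T1-TB library stood far above the other two, and Ifitm1 ranked 892nd there, against 8171st in the IRF8-deficient library and 9976th in the NTB library.

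The remaining members were low. Ifitm7 had 1.82 RPKM (1.30 to 2.46; 41 reads) in the IRF8-deficient library, 1.51 RPKM (1.01 to 2.17; 29 reads) in the 4T1-TB library and 4.59 RPKM (3.94 to 5.32; 178 reads) in the NTB library, so it was the only member highest in the NTB library, and the intervals of the other two libraries overlap. Ifitm5 had 1.40 RPKM (0.917 to 2.06; 26 reads) in the IRF8-deficient library, 0.445 RPKM (0.179 to 0.916; 7 reads) in the 4T1-TB library and 0.409 RPKM (0.218 to 0.700; 13 reads) in the NTB library. Ifitm10 had 0.178 RPKM (0.105 to 0.281; 18 reads) in the IRF8-deficient library and no reads in the 4T1-TB and NTB libraries, where a count of 0 allows levels of up to 0.0349 and 0.0173 RPKM (3 reads per library). Ifitm5 and Ifitm10 are thus at or near the limit of these depths in the 4T1-TB and NTB libraries.

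The sum of the family and its composition both differed between the libraries. Summed over the 7 members, the level was 799 RPKM in the IRF8-deficient library, 349 RPKM in the 4T1-TB library and 169.5 RPKM in the NTB library. It was 4.71-fold higher in the IRF8-deficient and 2.06-fold higher in the 4T1-TB than in the NTB library. Ifitm6 made up 52.7% of that sum in the IRF8-deficient library, 13.4% in the 4T1-TB library and 4.28% in the NTB library. Ifitm2 made up 31.0%, 54.6% and 80.5% in the same order of libraries. The share of Ifitm3 moved little, at 15.4%, 10.3% and 11.5%. Ifitm1 made up 21.1% in the 4T1-TB library, against 0.531% in the IRF8-deficient and 0.753% in the NTB library. A ratio between members inside a library is independent of how that library was scaled. Ifitm6 was 1.70 times Ifitm2 in the IRF8-deficient library, whereas Ifitm2 was 4.06 times Ifitm6 in the 4T1-TB library and 18.8 times Ifitm6 in the NTB library. Ifitm3 was 28.9 times Ifitm1 in the IRF8-deficient library and 15.2 times Ifitm1 in the NTB library, while Ifitm1 was 2.04 times Ifitm3 in the 4T1-TB library.

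**Figure D2:**
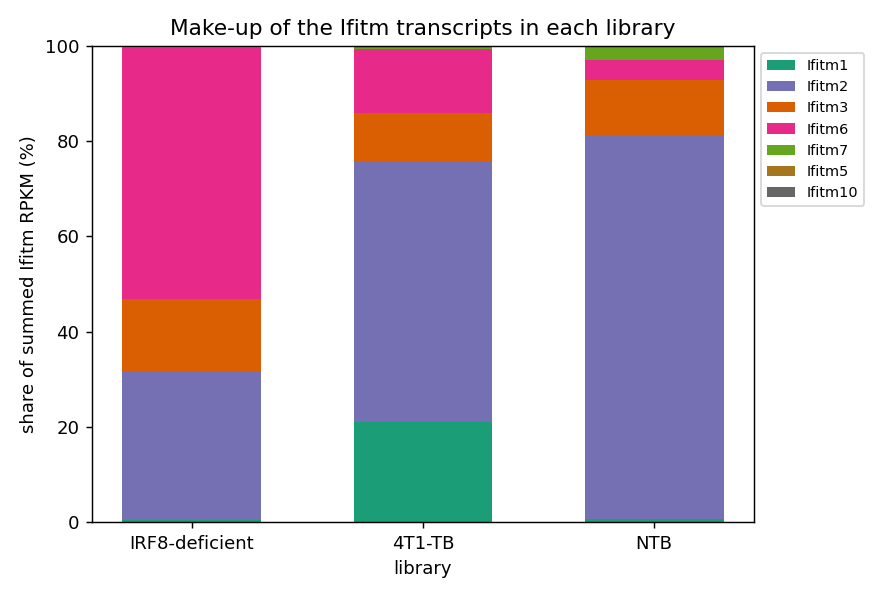
Share of the summed family RPKM, in percent, taken by each member in the IRF8-deficient, 4T1-TB and NTB libraries. Ifitm6 takes 52.7% in the IRF8-deficient library, and Ifitm2 takes 54.6% and 80.5% in the 4T1-TB and NTB libraries, with Ifitm1 at 21.1% in the 4T1-TB library.

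To place the members among all genes, differences were taken on log2(RPKM + 1) for the 10658 genes that reached 1 RPKM in at least 1 library, and a gene was counted as higher or lower when it differed by 1 or more. This scale understates the change of low genes. Ifitm10 did not reach 1 RPKM, so 6 members were compared. A gene could be compared through 1 library alone, the one where it was high, and Ifitm5 was compared only through the IRF8-deficient library. Each library takes part in more than 1 comparison, so the 3 comparisons are not independent.

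In the 4T1-TB against the NTB library, which asks how a mammary tumor bears on these progenitors, 2 of 6 members were higher and 1 was lower, against 1.67% of all compared genes higher and 1.35% lower. Ifitm1 was higher by 5.04 on the log2 scale, a 57.7-fold ratio of levels (45.0 to 75.3), and was the third highest difference of all compared genes. Ifitm6 was higher by 2.54, a 6.46-fold ratio (5.45 to 7.70), and was the 29th. Ifitm7 was lower by 1.16 on that scale, a level 3.04-fold lower (2.05 to 4.68), on 29 reads in the 4T1-TB library. Ifitm3 had a difference of 0.86 and a ratio of 1.86 (1.65 to 2.10), and Ifitm2 a difference of 0.48, both short of the threshold. Ifitm5 had a ratio of 1.09 with an interval of 0.367 to 2.93, so no difference was detectable at this depth. The median difference was 0.67 over the 6 members and 0.01 over all compared genes.

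In the IRF8-deficient against the NTB library, 3 of 6 members were higher and 0 were lower, against 8.78% of all compared genes higher and 5.73% lower. Ifitm6 was higher by 5.67 on the log2 scale, a 57.9-fold ratio (49.9 to 67.7), and was the sixth highest difference of all compared genes. Ifitm3 was higher by 2.60, a 6.31-fold ratio (5.75 to 6.94), and Ifitm1 by 1.203, a 3.32-fold ratio (2.44 to 4.57). Ifitm1 had few reads beside those of Ifitm3, with which it shares sequence, and the size of any mix-up was not tested. The Ifitm1 call was lost when levels were scaled by the summed reads, where the difference was 0.78, and with a larger pseudocount. Ifitm2 had a difference of 0.85, and Ifitm5 a difference of 0.77 with a ratio of 3.43 (1.70 to 7.27) on 26 reads against 13. Ifitm7 had a difference of -0.99, just short of the threshold, with a level 2.53-fold lower (1.79 to 3.65); it was counted as lower under 3 of the other settings. For Ifitm10 the IRF8-deficient level was 10.3-fold higher than the NTB level set at the floor of 3 reads, without the counting error of its 18 reads. The median difference was 1.03 over the 6 members and -0.02 over all compared genes.

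In the IRF8-deficient against the 4T1-TB library, 2 of 6 members were higher and 1 was lower, against 8.83% of all compared genes higher and 7.07% lower. Ifitm6 was higher by 3.14 on the log2 scale, an 8.96-fold ratio (8.22 to 9.79), and Ifitm3 by 1.74, a 3.40-fold ratio (3.08 to 3.75). Ifitm1 was lower by 3.83 on that scale, a level 17.4-fold lower (14.5 to 21.01), the eighth lowest difference of all compared genes. Ifitm2 had a ratio of 1.30 (1.24 to 1.36) and Ifitm7 a ratio of 1.202 (0.729 to 2.01). The Ifitm2 difference of 0.38 turned to -0.01 with levels scaled by the summed reads, and that of Ifitm7 to -0.07. The median over all compared genes was -0.32 with that scaling. Ifitm5 had a ratio of 3.16 (1.34 to 8.62) on 26 reads against 7. Ifitm10 was 5.10-fold higher than the 4T1-TB level set at the floor of 3 reads, again without its counting error. The median difference was 0.56 over the 6 members and -0.00 over all compared genes.

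**Figure D3:**
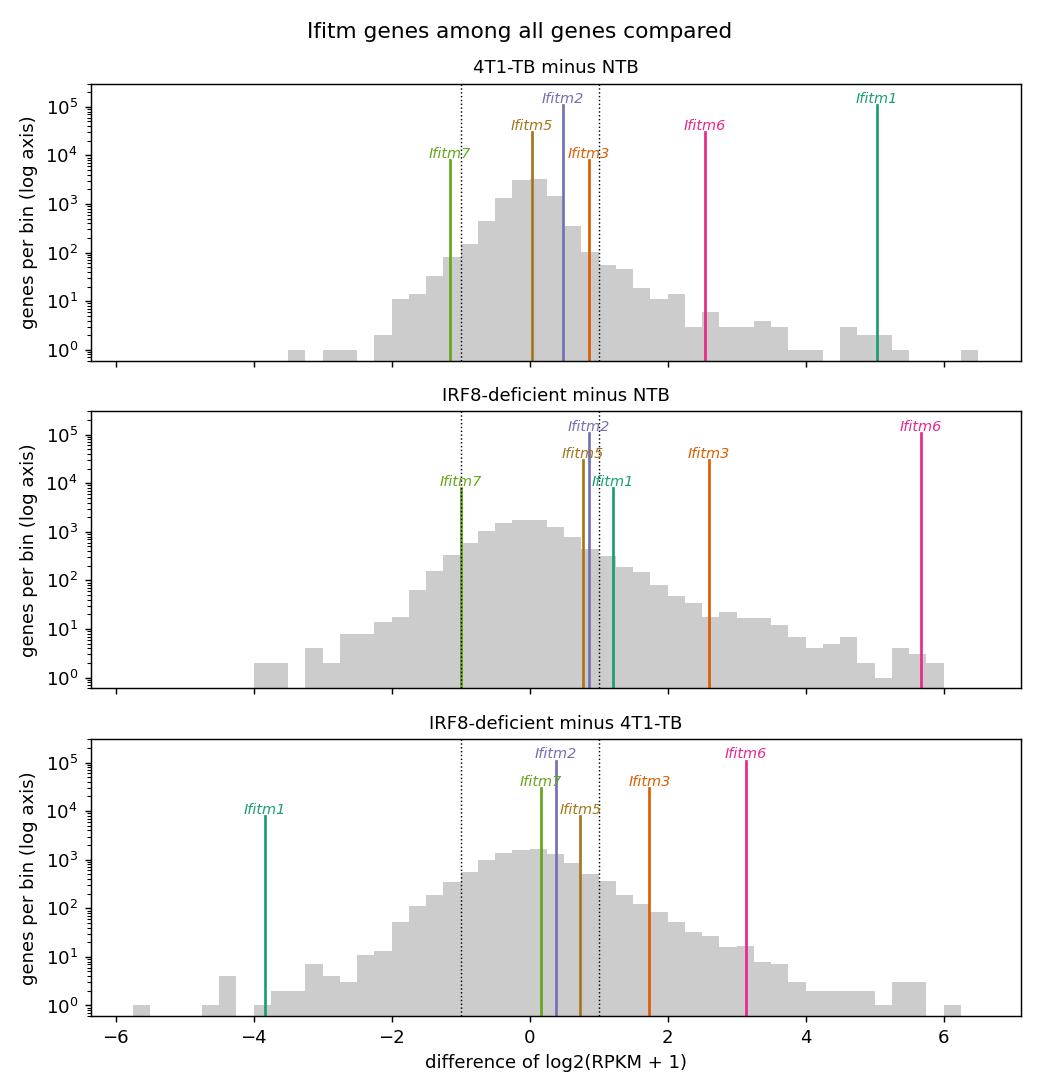
Distribution of the difference in log2(RPKM + 1) over 10658 compared genes in each of the 3 comparisons, with the compared members marked. Ifitm1 at 5.04 and Ifitm6 at 2.54 lie in the upper tail of 4T1-TB minus NTB, and Ifitm6 at 5.67 lies in that of IRF8-deficient minus NTB.

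The compared genes within 200 kb of the cluster stayed within the threshold against the NTB library. Within 200 kb on either side, 23 other listed genes were found, 8 of which were compared. Of those 8, 0 were higher or lower by 1 or more in the 4T1-TB against the NTB library, and 0 in the IRF8-deficient against the NTB library, with median differences of -0.11 and 0.02. The shares of all compared genes were 1.67% higher and 1.35% lower, and 8.78% and 5.73%, in the same order of comparisons. With 8 genes, a count of 0 does not set the neighbours apart from all genes. In a second list of genes around the cluster, 13 were compared, and the 8 are among them. Irf7 was the only 1 of the 13 higher in the IRF8-deficient against the NTB library, beside 8.78% of all compared genes. Against the 4T1-TB library, 2 of the 13 were higher in the IRF8-deficient library, beside 8.83% of all compared genes. These were Irf7 and Rassf7, the last 1 of the 8. Rassf7 had 3.99 RPKM in the IRF8-deficient, 1.12 RPKM in the 4T1-TB and 2.25 RPKM in the NTB library. With 13 genes, these counts do not set the list apart from all genes. Inside the cluster, Ifitm1 lies between Ifitm2 and Ifitm3, neither of which passed the threshold in the 4T1-TB against the NTB library. Both were higher there all the same: Ifitm3 had the 221st and Ifitm2 the 685th highest difference of all compared genes.

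**Figure D4:**
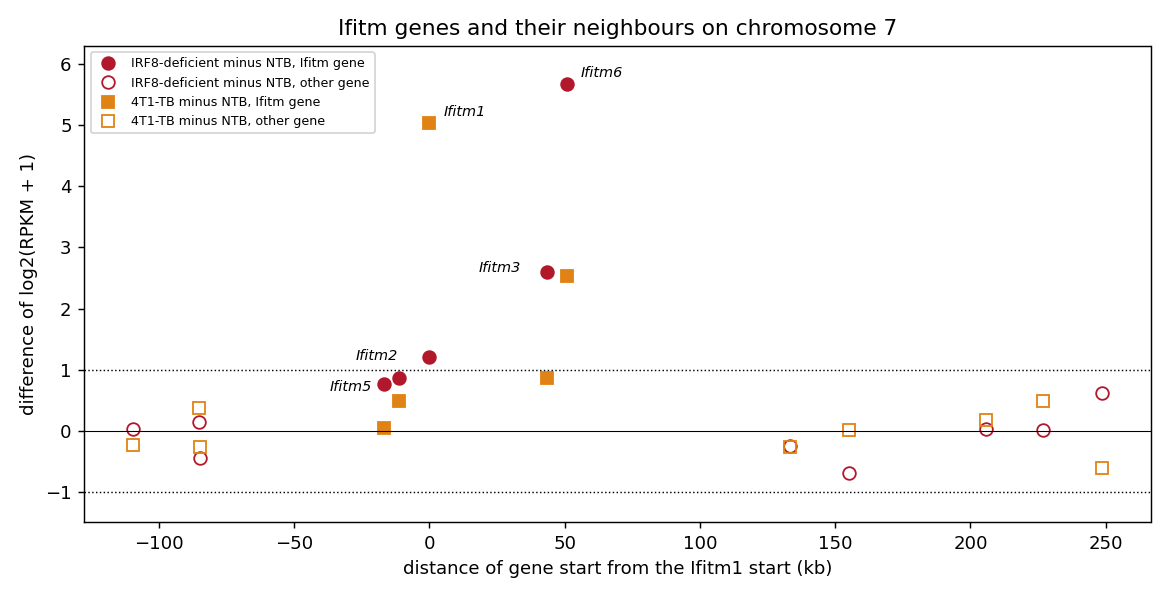
Difference in log2(RPKM + 1) against distance in kb from the Ifitm1 start for the compared genes around the cluster, for IRF8-deficient minus NTB and 4T1-TB minus NTB. Members stand up to 5.67 above 0, while the 8 compared neighbours lie within the threshold of 1 in both.

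The genes whose pattern over the 3 libraries was most like a member's were found by the distance between centred log2(RPKM + 1) values among 8218 genes. They describe a shape over 3 points and share the libraries' other differences. Nearest to Ifitm6 was Fpr2, a formyl peptide receptor of neutrophils, at a distance of 0.25, with 103, 11.7 and 1.58 RPKM in the IRF8-deficient, 4T1-TB and NTB libraries. Mmp9, Chil1, Cd177 and Mmp8 followed at 0.70 to 0.93, and all of these are genes of the later neutrophil stages. Nearest to Ifitm1 was Lipg, endothelial lipase, at 0.20, with 3.31, 54.9 and 1.08 RPKM in the same order, followed by Stfa2, Steap4, Clu and Wfdc17 at 0.85 to 1.26. Nearest to Ifitm3 was Kdm7a, a histone demethylase, at 0.09, with 40.8, 12.2 and 6.54 RPKM, and nearest to Ifitm7 was Snx30, a sorting nexin, at 0.03, with 3.33, 2.84 and 7.34 RPKM. Ifitm1 and Ifitm6 were 4.99 apart, and Ifitm3 and Ifitm6 were 2.18 apart. Ifitm2 and Ifitm5 spanned less than 1 on this scale and were not searched, nor was Ifitm10, which was too low. The scale understates the change of low genes such as Ifitm5.

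Ligands of the pathway that induces IFITM genes were not measurable: of 21 interferon genes, 0 reached 1 RPKM, and Ifnk and Ifnz alone were above 0. Of 17 compared receptors and signaling genes, 0 were higher or lower in the 4T1-TB against the NTB library (median difference 0.01). That count is near the shares of all compared genes, 1.67% higher and 1.35% lower. In the IRF8-deficient against the NTB library 3 were higher and 0 lower (median 0.49), against shares of 8.78% and 5.73%. Among those 3 were Ifnlr1, the lambda interferon receptor, with 18.7, 0.808 and 0.390 RPKM in the IRF8-deficient, 4T1-TB and NTB libraries, and Irf7, a factor that amplifies the interferon response, with 6.84, 1.31 and 1.07 RPKM. The same number, 3 of 17, was higher in the IRF8-deficient against the 4T1-TB library, against 8.83% of all compared genes.

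Among the other interferon-stimulated antiviral genes, higher levels were counted in the IRF8-deficient library and not in the 4T1-TB library. Of 40 compared, 0 were higher or lower in the 4T1-TB against the NTB library (median -0.10). That count is near the shares of all compared genes, 1.67% higher and 1.35% lower. In the IRF8-deficient against the NTB library 13 were higher and 0 lower (median 0.56), against shares of 8.78% and 5.73%. Of the 13, Ifit1bl2, Rsad2, Rtp4 and Zbp1 reached 1 RPKM only in the IRF8-deficient library. They were thus compared only through the library where they were high, which limits this count. Set against the 4T1-TB library, 11 were higher and 0 lower (median 0.67), beside shares of 8.83% and 7.07%. Oas3, a sensor of double-stranded RNA, had 7.74, 1.68 and 0.677 RPKM in the IRF8-deficient, 4T1-TB and NTB libraries, and Cmpk2, a mitochondrial nucleotide kinase, had 24.5, 3.11 and 4.78 RPKM. Ifit1bl2, of the IFIT family that binds viral RNA, had 4.25, 0.268 and 0.113 RPKM, and Ifi27 had 31.4, 9.37 and 19.0 RPKM. Gbp3, a guanylate-binding protein, had 8.23, 10.9 and 16.4 RPKM, and Bst2 (tetherin), which holds budding virus at the cell surface, had 12.6, 20.4 and 17.7 RPKM, so neither was highest in the IRF8-deficient library. With levels scaled by the summed reads, the medians of the IRF8-deficient against the NTB library were 0.11 for these genes and -0.03 for the receptors and signaling genes, so the median of the receptors and signaling genes changed sign. That scaling moved the median over all compared genes as well, from -0.02 to -0.50, and both lists stayed above it.

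Genes whose products act with or on IFITM proteins were then examined. Of 10 compared membrane-acting restriction genes, 1 was higher in the IRF8-deficient against the NTB library, a share near the 8.78% of all compared genes: Zmpste24, the protease through which IFITM proteins are reported to act, with 73.0, 32.3 and 25.001 RPKM in the IRF8-deficient, 4T1-TB and NTB libraries, a ratio of 2.92 (2.81 to 3.04) over NTB. Of 9 compared genes that modify IFITM proteins or their expression, 1 was lower, against 5.73% of all compared genes: Nedd4, the ubiquitin ligase that targets human IFITM3, with 33.9, 72.9 and 76.2 RPKM. Zdhhc20, a palmitoyltransferase of human IFITM3, had 27.0, 21.9 and 23.7 RPKM. Of 9 compared tetraspanins and partners, 4 were higher in the IRF8-deficient against the NTB library, against 8.78% of all compared genes. Cd9 had 153, 30.03 and 28.5 RPKM and Cd53 had 111, 24.7 and 38.7 RPKM in the same order, and the other two were Cd82 and Ptgfrn, the last on 1 read in the NTB library. Cd63, a lysosomal tetraspanin, had 75.4, 181 and 140.2 RPKM and was lower in the IRF8-deficient against the 4T1-TB library. Cd81, an IFITM1 partner in human cells, had 72.8, 60.2 and 66.8 RPKM. Of 8 listed dispanin relatives of the family, 0 reached 1 RPKM. In the 4T1-TB against the NTB library 0 genes of these 3 groups were higher or lower, near the 1.67% and 1.35% of all compared genes. The median of the tetraspanins and partners in the IRF8-deficient against the NTB library was 0.36 and changed sign, to -0.12, with levels scaled by the summed reads. The median over all compared genes moved from -0.02 to -0.50 with that scaling.

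Markers of neutrophil maturation also differed between the libraries. All 24 compared secondary and tertiary granule genes were higher in the IRF8-deficient against the NTB library (median 4.16), and 7 of 24 were higher in the 4T1-TB against the NTB library (median 0.52). Their summed level was 60410 RPKM in the IRF8-deficient library, 3370 RPKM in the 4T1-TB library and 2984 RPKM in the NTB library, and 0 of them were at 0 in any library. Of 29 compared mature neutrophil genes, 18 were higher and 1 lower in the IRF8-deficient against the NTB library, and 18 were higher and 0 lower in the 4T1-TB against the NTB library. Against the 4T1-TB library, 10 were higher and 8 lower in the IRF8-deficient library, beside 8.83% and 7.07% of all compared genes. The summed levels of the 31 listed were 103070, 14166 and 9257 RPKM in the IRF8-deficient, 4T1-TB and NTB libraries, most of it from S100a8 and S100a9, while the median levels were 21.5, 22.0 and 2.29 RPKM. Stfa2 was at 0 in the IRF8-deficient library, and Stfa2, Stfa3, BC100530 and Cxcl2 were at 0 in the NTB library. Ltf (lactoferrin) had 4856, 65.0 and 75.2 RPKM, and Ly6g, a defining surface marker of neutrophils, had 84.3, 8.16 and 4.09 RPKM, so the IRF8-deficient library was highest for both. Retnlg had 392, 178 and 6.54 RPKM and Wfdc17 had 1.31, 103 and 0.238 RPKM; the level of Wfdc17 was highest in the 4T1-TB library, as that of Ifitm1 was. Among 10 compared early progenitor genes, 5 were lower and 0 higher in the IRF8-deficient against the NTB library, and 1 was higher and 1 lower in the 4T1-TB against the NTB library. Cd34, a marker of early progenitors, had 5.41, 8.73 and 36.9 RPKM and Hoxa9, a factor of early progenitors, had 0.368, 6.29 and 1.90 RPKM in the IRF8-deficient, 4T1-TB and NTB libraries. Mecom and Gata2 were at 0 in the IRF8-deficient library. Of 13 compared primary granule genes, 1 was higher and 2 were lower in the IRF8-deficient against the NTB library (median -0.74). In the 4T1-TB against the NTB library 0 were higher or lower (median 0.46). The shares of all compared genes were 8.78% higher and 5.73% lower, and 1.67% and 1.35%, in the same order of comparisons. Against the 4T1-TB library, 0 primary granule genes were higher and 6 lower in the IRF8-deficient library, beside 8.83% and 7.07% of all compared genes. The part of maturation stage in the IFITM values was not tested.

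Of the other cell types, monocyte and macrophage genes had summed levels of 1906, 794 and 1198 RPKM in the IRF8-deficient, 4T1-TB and NTB libraries. Of 19 compared, 4 were higher and 2 lower in the IRF8-deficient against the NTB library, and 1 was higher and 6 lower in the 4T1-TB against the NTB library. All compared genes gave shares of 8.78% higher and 5.73% lower, and 1.67% and 1.35%, in the same order of comparisons. Marco was at 0 in every library, and C1qa, C1qb, C1qc and Ace were also at 0 in the 4T1-TB library. Summed levels were 14.0, 13.2 and 18.4 RPKM for B cell genes, 1.24, 3.32 and 1.34 RPKM for T and NK cell genes, and 31.7, 92.2 and 62.2 RPKM for erythroid genes, with the hemoglobin genes Hba-a1, Hba-a2, Hbb-bs and Hbb-bt at 0 in every library. In the same order, summed levels were 24.8, 28.8 and 28.1 RPKM for dendritic cell genes, 3.60, 1.87 and 1.99 RPKM for megakaryocyte genes, 65.7, 84.7 and 124 RPKM for basophil and mast cell genes, 35.6, 12.96 and 17.7 RPKM for eosinophil genes, and 10.002, 10.01 and 17.8 RPKM for stroma and endothelium genes. Mammary carcinoma and epithelial genes summed to 0.260, 2.09 and 6.15 RPKM, and Epcam was at 0 in the IRF8-deficient and 4T1-TB libraries. In several lists 1 gene carried most of the sum. The highest erythroid gene had 31.4, 89.6 and 56.9 RPKM in the IRF8-deficient, 4T1-TB and NTB libraries. The highest B cell gene had 10.3, 12.3 and 16.4 RPKM. The highest levels were 54.5, 61.4 and 103.7 RPKM for basophil and mast cell genes. They were 0.219, 2.03 and 5.93 RPKM for mammary and epithelial genes. Bst2, also counted among the antiviral genes, was the highest dendritic cell gene, with 12.6, 20.4 and 17.7 RPKM. The part of other cell types in the IFITM values was not tested.

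**Figure D5:**
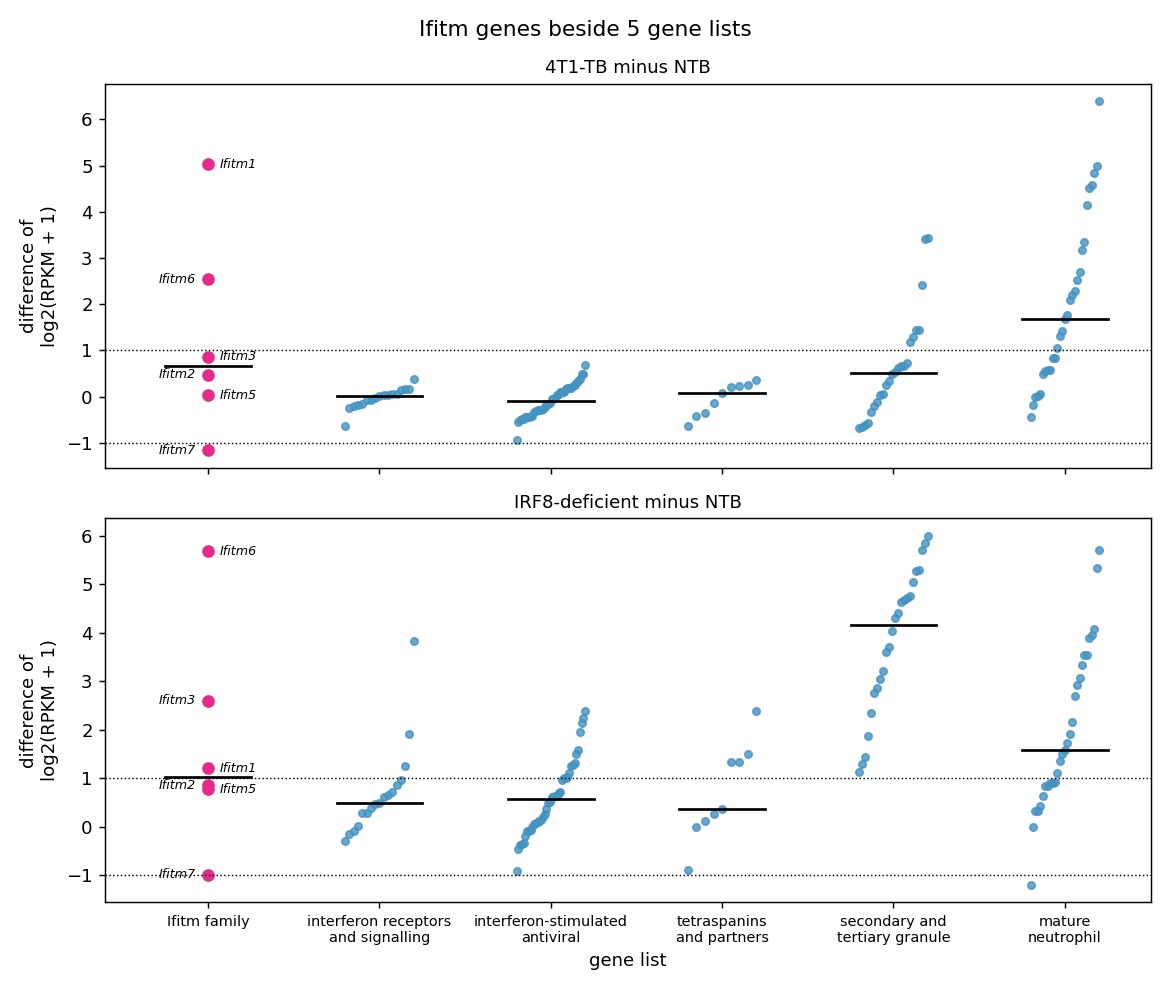
Difference in log2(RPKM + 1) for the compared genes of each group, 1 point per gene with the group's median, in the comparisons with the NTB library. Secondary and tertiary granule genes have a median of 4.16 in IRF8-deficient minus NTB, against 0.56 for interferon-stimulated antiviral genes and 1.03 for the 6 members.

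The members' sequences bear on how well their reads can be told apart. Aligned coding bases were 67.0% to 88.8% identical between pairs. The longest identical run was 69 bases between Ifitm2 and Ifitm3 and 64 bases between Ifitm1 and Ifitm3, while Ifitm6 shared at most 25 bases with any member. Of all stretches of 50 bases in the annotated transcripts, 5.56% in Ifitm3, 3.30% in Ifitm2 and 1.801% in Ifitm1 also occurred in another member, and 0% in the others. The separate counts of Ifitm1, Ifitm2 and Ifitm3 are therefore uncertain, and the sources used here do not give the read length or the handling of shared reads. A low member beside an abundant one can be affected by more than the share of its own stretches: Ifitm1 had 124 reads in the IRF8-deficient and 64 in the NTB library, beside 2076 and 564 reads of Ifitm3. Further annotated genes overlap members: a read-through model, Gm45717, runs over Ifitm2 and Ifitm5 on their strand, Gm49369 overlaps Ifitm10, and 2900011O08Rik lies on the opposite strand over Ifitm7. The last had 0.0325, 0.0765 and 0.161 RPKM in the IRF8-deficient, 4T1-TB and NTB libraries, and the sources used here do not say whether the counting used strand.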

How the data were processed

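RNA was measured in 3 libraries, 1 per group, from total RNA extracted with TRIzol and sequenced by a standard Illumina protocol, per the labels. The values are RPKM per gene as deposited by the authors. Per the submitters' processing notes, edgeR 3.12.1, HTSeq 0.6.1, Picard 1.97, TopHat2 2.0.13, cutadapt 1.2.1 and CASAVA 1.8.2 were used with mm10; no roles are stated. The sources used here do not give the annotation, strandedness or read length.

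From those values, reads per gene and library sizes were recovered with Python 3.11.15, numpy 2.4.6, pandas 2.3.3 and scipy 1.17.1, and figures were drawn with matplotlib 3.10.9. The steps of a gene's RPKM between libraries give its length, and 85.2% of the lengths implied for 6369 genes were whole within 0.03 bases. For 21.6% of genes, reads and length were multiplied by a whole number, either to make the length whole or to match the GENCODE M21 length. The share matched to GENCODE was not counted separately. Ifitm1, Ifitm3 and Ifitm10 are among these genes, and their read numbers rest on the GENCODE length. The recovery was also run on simulated data built with the lengths it had returned, so that run cannot check the multiplied lengths independently. The implied library size over the summed reads was 0.727, 0.951 and 1.06 in the IRF8-deficient, 4T1-TB and NTB libraries, so the deposited RPKM differ from a scaling by summed reads, which was tried as an alternative.

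Levels were compared on log2(RPKM + 1) among genes with 1 RPKM in at least 1 library, and a difference of 1 or more was counted. Intervals are exact Poisson intervals for levels and exact Clopper-Pearson intervals for ratios. PCR reads are not independent molecules, so intervals and floors cover counting error only. From each list the text names genes among the 3 with the largest difference in each comparison with the NTB library. A few further ones of the rule, such as Cd81 and Zdhhc20, are also named. Mpo, Elane, Bst2, Ptgfrn, Rsad2, Rtp4, Zbp1 and genes given as at 0 were chosen after their values were seen. For likeness, genes with 5 RPKM in at least 1 library were searched for members spanning 1 or more on the log2 scale. Coding sequences were aligned with Biopython 1.88. The members and the gene lists were chosen with earlier results of these data known. Alternatives were pseudocounts of 0.1 and 5, a minimum of 5 RPKM, no minimum, a threshold of 2, scaling without the 20 highest genes, scaling by median ratios, and scaling by summed reads. Some genes of the lists are not reported here by name.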

Additional observations from a re-analysis of the deposited data

How the results depend on the processing

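Of 105 member differences recomputed, 0 reversed as called values, 10 changed their call and 3 uncalled ones changed sign, all with summed reads: Ifitm2 (0.38 to -0.01) and Ifitm7 (0.17 to -0.07) in the IRF8-deficient against the 4T1-TB library, and Ifitm5 (0.04 to -0.01) in the 4T1-TB against the NTB library. Median ratio scaling and no minimum left every count of members called as it was. The calls of Ifitm1 in the comparisons with the 4T1-TB library, and of Ifitm6 and Ifitm3, held at the threshold of 1. Ifitm1 in the IRF8-deficient against the NTB library fell below the threshold with a pseudocount of 5 (0.56) and with summed reads (0.78), and Ifitm7 in the 4T1-TB against the NTB library with a pseudocount of 5 (-0.56). Ifitm7 in the IRF8-deficient against the NTB library was counted as lower with a pseudocount of 0.1 (-1.29), without the 20 highest genes (-1.13) and with summed reads (-1.32), which gave 1 member lower in each. Ifitm5 and Ifitm10 in the IRF8-deficient library passed the threshold with a pseudocount of 0.1 (1.47 to 1.56). In the 4T1-TB against the NTB library, 0 members were lower with a pseudocount of 5, a minimum of 5 RPKM or a threshold of 2, which also left 1 member higher in the IRF8-deficient against the 4T1-TB library.

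Shares of all compared genes moved as well. In the 4T1-TB against the NTB library, 2.65% were higher and 3.32% lower with a pseudocount of 0.1, 0.610% and 0.197% with 5, 0.441% and 0.0469% at a threshold of 2, and 0.868% were lower with a minimum of 5 RPKM. In the IRF8-deficient against the NTB library, 10.05% were lower with a pseudocount of 0.1 and 8.77% without the 20 highest genes, 4.94% were higher and 1.40% lower with a pseudocount of 5, and 1.90% and 0.385% at a threshold of 2. With summed reads they were 4.16% higher and 17.4% lower, against 8.78% and 5.73%. In the IRF8-deficient against the 4T1-TB library they were 4.46% and 2.92% with a pseudocount of 5, 1.67% and 0.469% at a threshold of 2, and 4.48% and 13.8% with summed reads, against 8.83% and 7.07%. The median difference over all compared genes shifted, with summed reads, by -0.14, -0.47 and -0.32 in the 4T1-TB against NTB, IRF8-deficient against NTB and IRF8-deficient against 4T1-TB comparisons.

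No paired analysis was possible because each group has 1 library. For the same reason no library was left out in turn, and there is no spread between mice. Depth limits Ifitm5 and Ifitm10.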
